A study of Homo sapiens with 2 samples.

Results

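RUNX1 binding was examined at 10 genes of the TGF-β pathway, the ligands TGFB1, TGFB2 and TGFB3, the receptors TGFBR1, TGFBR2 and TGFBR3, the signalling proteins SMAD2, SMAD3 and SMAD4, and the inhibitor SMAD7. A peak belonged to a gene when its summit, the base with the most tags, lay in the gene's RefSeq interval (GRCh38.p14) or within 50 kb on either side. By this rule 28 of the 13591 deposited peaks were taken, and no peak was shared by 2 of the genes. They came from chromatin immunoprecipitation and sequencing (ChIPseq) of MCF10A cells, a non-tumorigenic human mammary epithelial line. In these cells RUNX1 had been deleted and put back with a lentivirus that makes RUNX1 when doxycycline is present, given at 1 µg/ml for 24 hours to the cells of both libraries. There was 1 library made with a RUNX1 antibody, with 80338845 tags kept, and 1 library of input DNA, made without an antibody, with 87410774. In an earlier ChIPseq of endogenous RUNX1 the authors saw no strong binding. They proposed low RUNX1 expression or low antibody affinity as possible reasons. The binding here therefore belongs to engineered cells with RUNX1 from a vector. Nothing here has a replicate, no difference between samples was tested, and the intervals given cover counting error only.

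TGF-β ligands are secreted in a latent form and, once released, bind the type II receptor TGFBR2, which then activates the type I receptor TGFBR1. The active receptor phosphorylates SMAD2 and SMAD3, which join SMAD4, enter the nucleus and act on genes together with other DNA-binding proteins. RUNX proteins are among the known partners of these SMADs. In mammary epithelium the pathway restrains proliferation and, in other settings, drives the change from epithelial to mesenchymal character.

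Of the 10 genes, 8 had at least 1 peak and 2, TGFB3 and SMAD2, had 0. The peaks were spread unevenly. SMAD3 had 12, TGFBR3 5, TGFB1 4, TGFBR1 and SMAD7 2 each, and TGFB2, TGFBR2 and SMAD4 1 each. Of all 20037 protein-coding genes, 52.1% had a peak by the same rule, and the genes of this pathway are long, with a median of 71.3 kb against 24.1 kb for all protein-coding genes. A count of 8 of 10 is read against that share, without a test. SMAD3 alone held 42.9% of the 28 peaks.

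**Figure D1:**
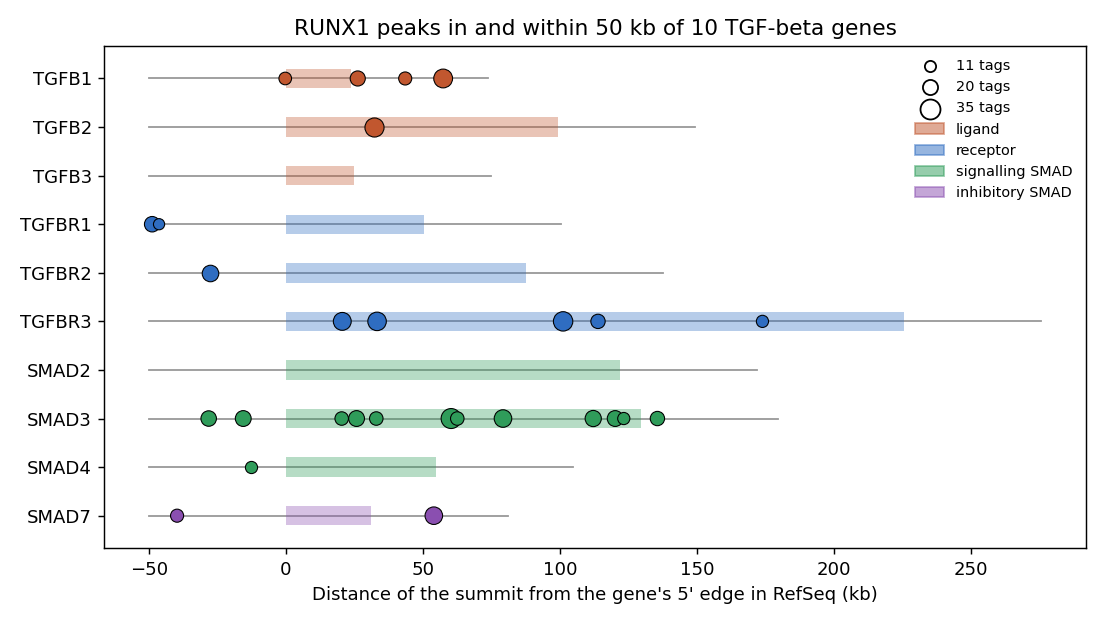
Each row is 1 gene, drawn in its own direction of transcription. The x axis is the distance of the summit from the gene's 5′ edge in kb, the coloured bar is the gene, the grey line the 50 kb on either side, and each circle is a peak with an area that grows with its tags. SMAD3 has peaks before, inside and beyond the gene, those of TGFBR3 are all inside the gene, and TGFB3 and SMAD2 have 0.

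Of the 26 start windows that RefSeq gives for the 10 genes, each 250 bases before and 50 bases after a start site, 3 were overlapped by a peak. These were 2 of the 5 windows of SMAD3 and the only window of TGFB1. Over all genes 1.65% of 35097 such windows were overlapped. The peak bases at a SMAD3 start and at the TGFB1 start are shown, the first because the peak falls whole into a start window and the second because it is the one ligand start with a peak. The first is the whole SMAD3 peak at chr15:67098436-67098641 on the plus strand, which ends 38 bases before an internal start site of the gene. The second is the part of the TGFB1 peak that falls in its window, chr19:41354122-41354172 on the minus strand, 250 to 200 bases before the start. Capitals mark TGTGGT, the core of the known RUNX motif, read on either strand, where the other strand appears as ACCACA.
SMAD3 internal start: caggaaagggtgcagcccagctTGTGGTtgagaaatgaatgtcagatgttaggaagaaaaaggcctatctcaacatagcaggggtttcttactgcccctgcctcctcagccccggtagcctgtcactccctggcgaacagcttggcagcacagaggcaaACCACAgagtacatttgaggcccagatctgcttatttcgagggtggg
TGFB1 start: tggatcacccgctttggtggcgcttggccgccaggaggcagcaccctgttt

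The SMAD3 run of 206 bases held the motif 2 times, at bases 23 to 28 and, on the other strand, at bases 160 to 165. The centre of the second lay 21 bases from the summit and that of the first 116 bases before it. The TGFB1 run of 51 bases held it 0 times, also when TGCGGT and its other strand ACCGCA were counted, and so did the whole 300-base windows of TGFB1 and of the other overlapped SMAD3 start. Most of the TGFB1 peak, its summit included, lies outside the window, and its sequence there was not used here. The same holds for the peak at the other overlapped SMAD3 start, the tallest of the 28. Only 70 of its 275 bases fall in that window, and its summit does not. In all start windows 13.1% held TGTGGT on either strand, 19.6% held TGTGGT or TGCGGT, and 2.32% held at least 2 matches of either form. Among the 580 windows overlapped by a peak the shares were 31.2%, 56.2% and 17.4%. The share with at least 2 matches of TGTGGT alone was not computed. A match describes letters in the window and is not a measured site.

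Among the ligands, TGFB1 had 4 peaks and none of their summits was inside the gene. The tallest of these, at 41296311 to 41296670 on chromosome 19, was 360 bp wide with 31 tags (exact 95% Poisson interval 21.1 to 44.0), and an 8.45-fold enrichment over the local background, 1 being added to both. It lay 33.8 kb beyond the 3′ end of TGFB1, inside HNRNPUL1. Next came a peak of 20 tags (12.2 to 30.9), 334 bp wide, at 41327604 to 41327937 and 2.61 kb beyond the 3′ end, in no protein-coding gene. A peak of 15 tags (8.40 to 24.7), 98 bp wide, lay 19.9 kb beyond the 3′ end in CCDC97, over a start window of that gene. The peak at the TGFB1 start, 41354122 to 41354254, had 14 tags (7.65 to 23.5), a width of 133 bp and a 3.99-fold enrichment, and its summit was 269 bp before the start. It was thus the lowest of the 4, and 78.8% of all peaks in the list were taller. TGFB1 encodes the most widely expressed ligand.

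TGFB2 had 1 peak, at 218377367 to 218377584 on chromosome 1, inside the gene and 32.2 kb after its start. It had 32 tags (21.9 to 45.2), and 6.66% of all peaks were taller. Its fold enrichment was 5.07, near the 5.06 median of the whole list, since the input level there, the background against which the peak was called, was 2.50 times the genome-wide value. After the scaling between libraries that level equals 6 input tags (2.20 to 13.1), where the genome-wide value amounts to 2.40. TGFB2 lies past 140 Mb on chromosome 1, where the 830 peaks had a median input level of 1.67 times the genome-wide value, against 1.05 before 120 Mb. The part of this in the height of the TGFB2 peak was not tested. TGFB3 had 0 peaks, and the nearest summit, of a peak of 14 tags, was 80.6 kb away.

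The receptors had 8 peaks, of which 5 belonged to TGFBR3, the betaglycan co-receptor that presents ligand to the other receptors. All 5 lay inside the gene. The one nearest to its listed start was at 91885284 to 91885712 on chromosome 1. RefSeq places that start inside the gene interval. The peak was 706 bp after it and 429 bp wide, with 28 tags (18.6 to 40.5) and a 9.06-fold enrichment. The input level there was at its lowest, the genome-wide value. The next, 13.4 kb after the start, had 30 tags (20.2 to 42.8) and was 264 bp wide. The tallest, with 33 tags (22.7 to 46.3), was also the widest of the 28 peaks at 449 bp and lay 81.3 kb after the start, at 91804488 to 91804936. Its fold enrichment was 4.57, because its input level was 2.92 times the genome-wide value, or 7 input tags (2.81 to 14.4). The other 2 had 18 tags (10.7 to 28.4) at 94.1 kb and 13 tags (6.92 to 22.2) at 154 kb. The 2 peaks nearest the start had the highest fold enrichments of the gene, although not its highest pileup, and the counting intervals of the 5 overlapped except those of the 33-tag and 13-tag peaks.

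TGFBR1 and TGFBR2, the signalling receptors, had 0 summits inside the gene. TGFBR2, on chromosome 3, had 1 peak at 30578599 to 30578860, 27.7 kb before its first start and in no protein-coding gene. It was 262 bp wide, with 24 tags (15.4 to 35.7) and a 6.65-fold enrichment. The 2 peaks assigned to TGFBR1, on chromosome 9, both lay inside COL15A1, a collagen gene, 48.9 and 46.3 kb before TGFBR1. One, at 99054689 to 99054847, had 21 tags (13.0 to 32.1). The other, at 99057220 to 99057319, had 11 tags (5.49 to 19.7), a 3.19-fold enrichment and a −log10 q of 1.41, the weakest of the 28, and 98.2% of all peaks were taller.

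SMAD3, which carries the signal from the receptor to DNA, had 12 peaks, 9 inside the gene, 2 before it and 1 beyond its 3′ end. Their pileups ranged from 13 to 35 tags with a median of 21.5, their widths from 96 to 313 bp and their fold enrichments from 3.73 to 9.86. The tallest, at 67125722 to 67125996 on chromosome 15, had 35 tags (24.4 to 48.7), the most among the 28, and a 9.86-fold enrichment. Its summit was 159 bp after an internal start site, 60.3 kb into the gene. Of all peaks 4.66% were taller. The second, with 27 tags (17.8 to 39.3) at 67144734 to 67144977, lay 79.2 kb into the gene, also inside the antisense RNA gene SMAD3-AS1. The peak over the internal start whose sequence is shown above had 16 tags (9.15 to 26.0), and its summit was 103 bp before that start. The input level there was at its lowest, the genome-wide value.

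**Figure D2:**
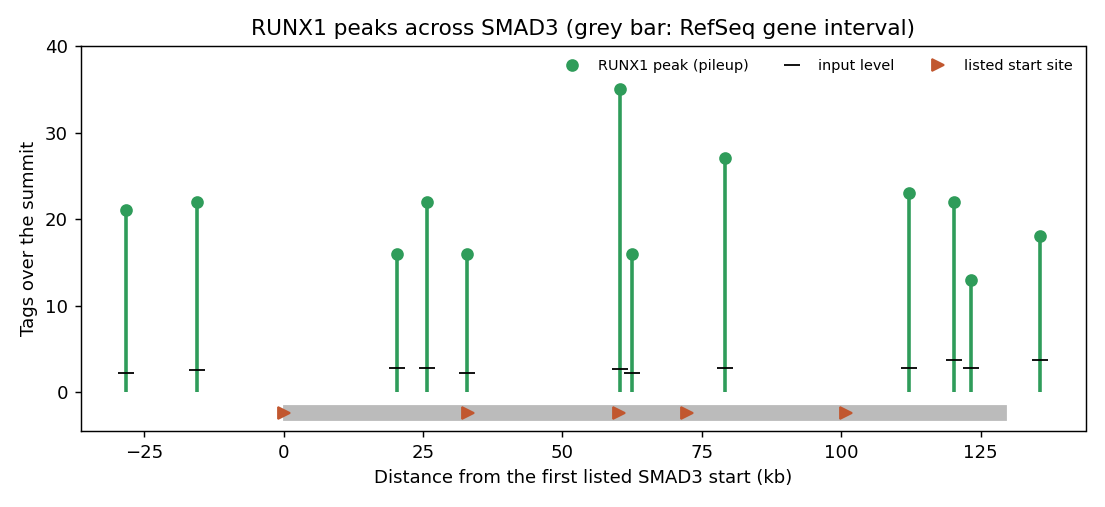
The y axis gives the tags over the summit of each of the 12 SMAD3 peaks, the x axis the distance in kb from the first listed start, black dashes the input level and triangles the 5 listed starts. The tallest peak, of 35 tags, and a peak of 16 tags stand at internal starts, and the nearest summit to the first start is 15.6 kb before it.

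The remaining SMAD3 peaks stood apart from the listed starts. Those before the gene, at 28.2 and 15.6 kb, had 21 tags (13.0 to 32.1) and 22 tags (13.8 to 33.3) and lay inside SMAD3-DT, an RNA gene beside SMAD3. Between the first start and the first overlapped internal start lay peaks of 16 tags at 20.3 kb and 22 tags at 25.8 kb. A peak of 16 tags stood 2.25 kb from the tallest one. Toward the 3′ end lay peaks of 23, 22 and 13 tags at 112, 120 and 123 kb, and one of 18 tags 6.06 kb beyond the gene, inside AAGAB. The gaps between neighbouring SMAD3 summits were 2.25 to 36.0 kb, so that 0 pairs were close enough to be parts of 1 peak. SMAD3-DT and SMAD3-AS1 were named after their values were seen. The 4 peaks nearest the 3′ end were also within 50 kb of AAGAB.

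The first SMAD3 start was not overlapped, and no peak overlapped a start window of SMAD2, SMAD4 or SMAD7. SMAD2, the close relative of SMAD3 and the other receptor-activated SMAD of this pathway, had 0 peaks, with the nearest summit 72.3 kb away and a pileup of 17 tags. SMAD4, the partner common to both, had 1 peak, at 51017417 to 51017490 on chromosome 18 and 12.8 kb before the gene. It had 13 tags (6.92 to 22.2) and was 74 bp wide, the smallest width the peak caller allows. SMAD7, which blocks the receptor and is itself induced by TGF-β, had 2 peaks and 0 inside the gene. The taller, at 48896878 to 48897143, lay 22.9 kb beyond its 3′ end with 27 tags (17.8 to 39.3) and a 7.45-fold enrichment. The other, at 48990704 to 48990853, lay 39.8 kb before the gene with 15 tags (8.40 to 24.7). SMAD2, SMAD4 and SMAD7 are all on chromosome 18, and together they had 3 peaks against 12 at SMAD3.

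Measured per length, the windows of the 10 genes held 15.1 peaks per Mb (exact 95% Poisson interval 10.1 to 21.9), and without SMAD3 they held 9.88 (5.65 to 16.0). The windows of all protein-coding genes held 6.49 per Mb. SMAD3 had 52.3 peaks per Mb (27.0 to 91.3), TGFB1 32.4 (8.82 to 82.9), TGFBR3 15.4 (4.99 to 35.8), SMAD7 15.3 (1.85 to 55.1) and TGFBR1 13.3 (1.61 to 48.0). Those of SMAD4, TGFBR2 and TGFB2 were 6.46, 5.33 and 5.02. The intervals of SMAD3 and TGFB1 overlap, as do those of most neighbours in this order. By number, 6 protein-coding genes had more peaks than SMAD3, and 13 of 20037, or 0.0649%, had 12 or more. By density, 0.379% of genes exceeded SMAD3, 2.91% exceeded TGFB1, and 17.4% exceeded TGFBR3.

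**Figure D3:**
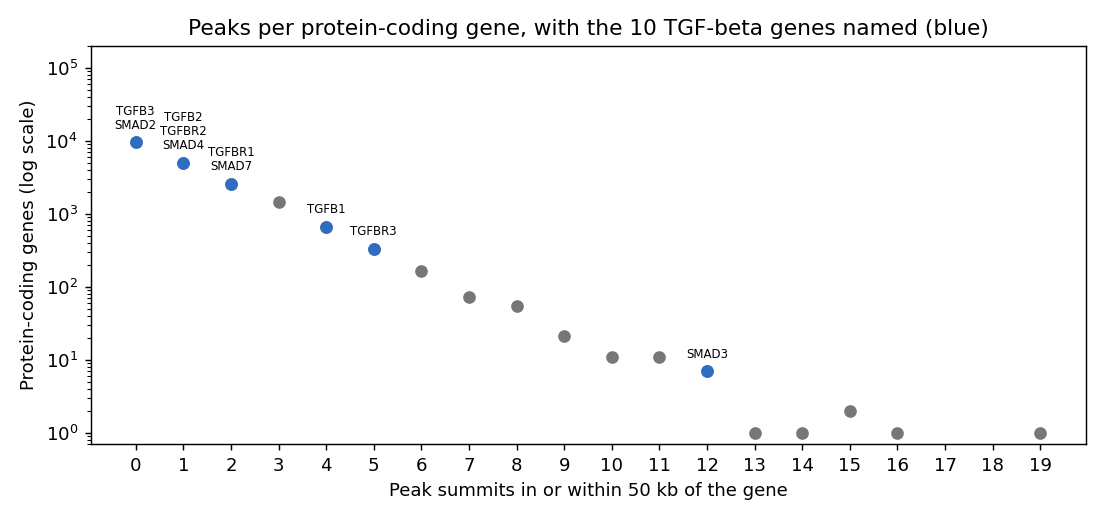
The x axis is the number of summits in or within 50 kb of a gene and the y axis, on a log scale, the number of protein-coding genes with that count; blue points carry the names of the TGF-β genes found there. SMAD3 stands at 12, a count reached or passed by 13 genes, whereas the other 9 genes stand at 0 to 5.

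As a set the 28 peaks were of moderate strength. Their median pileup was 21 tags (quartiles 15.8 and 27) against 18 (15 and 23) for the whole list, and 18 of them, or 64.3%, reached that list's median, against 53% of all peaks. None was above 35 tags, and the highest pileup in the list was 148. Their median width was 222 bp against 153 bp, and 18 were wider than the list's median. Their median fold enrichment, 5.45, was close to the 5.06 of all peaks. The input level was within 1% of the genome-wide value of 2.20 tags at 21.4% of them and at 39.5% of all peaks. At no peak of the list was it below that value, so at such peaks the input itself may be lower. At 13 of the 28 the level equalled 3 input tags (0.619 to 8.77), which is 1.25 times the genome-wide value. That value amounts to 2.40 tags, so 3 is the lowest whole count that can show above it. The interval therefore had to cover 2.40 and decides nothing. At 4 of the 28 the level exceeded 1.5 times the genome-wide value, as it did at 22.1% of all peaks. These 4 were the single TGFB2 peak, the tallest of TGFBR3 and 2 of SMAD3 at 1.67.

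**Figure D4:**
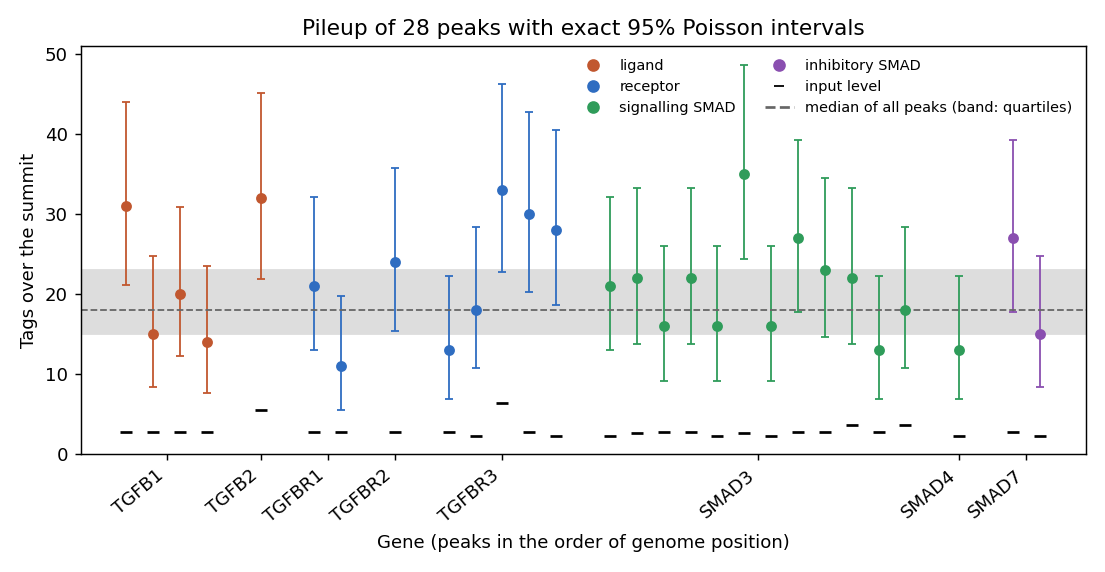
Points are the tags over the summit (y axis) of the 28 peaks, grouped by gene on the x axis, with exact 95% Poisson intervals, and black dashes are the input levels. The grey band spans the quartiles of all peaks, 15 to 23 tags, around the dashed median of 18, and all points lie between 11 and 35 tags.

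By position, 15 of the 28 summits were inside their own gene, 8 before it and 5 beyond it. Inside the gene the median pileup was 22 tags and the median width 244 bp, before it 18 tags and 142 bp, and beyond it 20 tags and 266 bp. The 15 inside belonged to SMAD3, TGFBR3 and TGFB2, which are 130, 226 and 99.3 kb long. Of the 13 outside, 5 were inside another protein-coding gene, HNRNPUL1, CCDC97, COL15A1 for 2 of them, and AAGAB, and a summit within 50 kb does not say which gene it acts on. Counting summits inside the gene alone, 3 of the 10 genes had one, against 18.7% of protein-coding genes. With 5 kb on either side it was 4, against 24.8%, and with 100 kb all 10, against 68.2%. At the limit of 50 kb, the farthest summit counted was the one 48.9 kb from TGFBR1, with 21 tags. The nearest not counted were 52.2 kb from SMAD4, with 14 tags, and 52.2 kb from TGFB2, with 17 tags.

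Around these genes, 37 further members of the pathway were looked up, and 25 had a peak within 50 kb, 58 peaks in all, against the same 52.1% of protein-coding genes. The list was drawn up with earlier results of these data known. Their median pileup of 17 tags was near the 18 of the whole list. Of the 9 inhibitors 7 had a peak. TGIF1, a corepressor of SMAD2 and SMAD3, had 2, the taller with 24 tags (15.4 to 35.7). PMEPA1, a TGF-β-induced membrane protein that holds back SMAD activation, had 6, the most of this group, the tallest with 23 tags (14.6 to 34.5). Those at 57692921 to 57693072 and 57693153 to 57693248 lay within 1 kb of each other and were counted singly. TGIF2 and BAMBI had 0. All 3 target genes had peaks. ID1, a helix-loop-helix protein that blocks differentiation factors, had 7 outside its short gene, the most of the 37 when each deposited peak is counted singly. They had up to 24 tags (15.4 to 35.7), and 2 of them lay inside HM13. Some neighbouring ID1 peaks lay within 1 kb of each other, so merging would lower this count, to below that of PMEPA1. CCN2, a matrix-associated growth factor, had 1 with 26 tags (17.0 to 38.1).

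Of the 7 genes listed under ligand latency and release, 5 had a peak. LTBP2, of the latent TGF-β binding protein family, had 4, the tallest with 33 tags (22.7 to 46.3), and LRRC32, which anchors latent TGF-β on the cell surface, had 2, the taller with 27 tags (17.8 to 39.3). LTBP4 and NRROS had 0. Of the 7 other receptors 4 had a peak. ACVR1C, a type I receptor, had 1 of 35 tags (24.4 to 48.7), 550 bp wide and 11.2-fold enriched, inside the gene, and ACVR1 had 3, the tallest with 19 tags (11.4 to 29.7). ACVR1B, ACVRL1 and ENG had 0. Of the 5 other ligands only GDF11, with 2 peaks, and NODAL, with 1, had any, the tallest with 21 (13.0 to 32.1) and 13 tags (6.92 to 22.2), all inside other genes, while INHBA, INHBB and MSTN had 0. SMAD6, an inhibitory SMAD, and SMAD5, of the BMP branch, had 1 each with 19 and 16 tags, and SMAD1 and SMAD9 had 0. Both adaptors had peaks, FKBP1A, which binds type I receptors, 3 with up to 22 tags and ZFYVE9, which brings SMADs to the receptor, 1 with 16 tags. By number, SMAD3, with 12, had more peaks than any other of the 47 pathway genes. Per length, with each deposited peak counted singly, ID1 was higher, with 69.2 peaks per Mb (27.8 to 142) against 52.3 (27.0 to 91.3). These intervals overlap. Neighbouring ID1 peaks lay within 1 kb of each other, whereas no SMAD3 pair did. The ID1 pairs were those at 31566716 to 31566918 and 31567034 to 31567310, at 31602855 to 31603116 and 31604067 to 31604297, and at 31610818 to 31611047 and 31611490 to 31611710. Merging these pairs would lower the ID1 density below that of SMAD3, which would stay the same.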

How the data were processed

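Per the labels, reads were aligned with Bowtie2 (version not given in the sources used here) to hg38. The authors called peaks with MACS 2.1.2 from both libraries, keeping those with a q-value under 0.05. According to the file headers, tags of 54 bp were extended to 74 bp and 1 tag per position and strand was kept, which caps the pileup at 148. The deposited pileup is a signal and counts extended tags at the summit. Fold enrichment, as deposited, is a ratio of pileup to local background with 1 added to each. The deposited q-value is given as −log10, and the p-value column was not used.

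The input level was recovered from pileup and fold enrichment, and divided by the library scale of 0.919 to give input tags. It is the background used for the peak and was never below the genome-wide value. Where it equals that value, the input tags at the site are not known. A level within 0.02 of a whole number was read as that number. Genes and starts came from RefSeq tables of GRCh38.p14, and peaks were assigned in Python 3.11.15 with pandas 2.3.3. Exons and introns were not used here. The assignment was tested on simulated data. Named are the 10 genes, the genes holding their summits, and in each role of a 37-gene list the 2 with the tallest peak and all without one. Intervals are exact 95% Poisson intervals (scipy 1.17.1). The genes, lists and settings were chosen with earlier results of these data known.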

Additional observations from a re-analysis of the deposited data

How the results depend on the processing

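The count of peaks, of genes with a peak and of peaks per Mb stayed within 1.5 times or within counting error with a q limit of 0.01, overlap of any base, peaks within 1 kb merged, and 100 kb on either side, which gave all 10 genes a peak where 68.2% of protein-coding genes had one. With a fold enrichment of at least 5 the peaks fell from 28 to 17, by construction, the density from 15.1 to 9.19 per Mb and the wider list from 25 to 14 genes with a peak, while 7 of the 10 genes kept one, SMAD4 losing its peak. By that setting 35.1% of protein-coding genes had one. With gene intervals alone 15 peaks at 3 of the 10 genes remained (18.7% of protein-coding genes had one), and 15 of the wider list. With 5 kb on either side there were 17 peaks at 4 genes (24.8%). Narrower windows hold fewer peaks by construction. The tallest pileup moved beyond its counting interval for TGFB1, from 31 to 20 tags with 5 kb, and for none of the other genes that had a value. Both the gene interval alone and 5 kb left TGFBR1, TGFBR2, SMAD4 and SMAD7 without one, and the gene interval alone also TGFB1. No paired analysis was possible because the design has 1 ChIP and 1 input library. With 11 to 35 tags a peak, counting intervals run from 5.49 to 19.7 tags at the lowest and from 24.4 to 48.7 at the highest.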
